A study of Mus musculus with 4 samples.

Results

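The 9 transcription factor and cofactor genes known from effector and tissue-resident lymphocytes that were followed by name are the T-box genes Tbx21 and Eomes, the Runt genes Runx1, Runx2 and Runx3, their shared partner gene Cbfb, and Hlx, Hopx and Zeb2. Of these, 8 had at least 1 probe set assigned to them alone, out of 18193 genes with such a probe set on the array. Runx2 was not matched and is given by sequence only. Each gene was read from its probe set of highest mean signal over the 4 arrays. Of the 8, 7 passed the limit for dim probe sets (a mean signal of 29.5) and entered the test over 12241 genes, and Hlx did not.

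The cells were CD4+ T lymphocytes from large intestine lamina propria, the connective tissue under the gut epithelium, released by collagenase from mice of 129/B6 mixed background. All mice were heterozygous for a green fluorescent protein (GFP) knock-in at Gpr15, a chemoattractant receptor gene, so both groups carried the knock-in, and GFP stood for Gpr15 expression. Sorting gave a GFP-positive and a GFP-negative group with 2 Affymetrix arrays each, and the comparison sets Gpr15-expressing CD4 T cells against the remaining CD4 T cells of that tissue. The age and number of the mice are not given in the labels. The p-values cover only the spread between the 2 arrays within each group, pooled in part over all tested genes. In bulk RNA fewer cells that express a gene and less RNA per cell cannot be told apart.

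T-bet, the product of Tbx21, is the lineage factor of type 1 helper T cells and switches on interferon-gamma, and its relative eomesodermin, from Eomes, shares many targets and is best known from killer T cells and natural killer (NK) cells. RUNX proteins bind DNA as a dimer with CBF-beta, from Cbfb. RUNX3 works with T-bet at the interferon-gamma gene and drives CD103 in tissue-resident T cells, and RUNX1 acts in thymic development and in regulatory T cells with Foxp3. Hlx is a homeobox factor that acts with T-bet, Hopx is a small homeodomain protein without DNA binding of its own that is found in effector and peripherally induced regulatory T cells, and Zeb2 is a zinc finger repressor that acts downstream of T-bet in terminal effector cells and is also prominent in macrophages.

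The 3 Runt genes shared a stretch of promoter sequence. A pair of RUNX sites spaced by 2 bases, searched as ACCACAGAACCACA on both strands, lay near the first annotated start of each of the 3 Runt genes. It is shown because it is the feature they share. In RefSeq's table of promoter windows (GRCm38.p6, 300 bases each) it occurred in 4 of 32851 windows, or 0.0122%, and this pair was chosen after the sequences were seen. Of the 4 windows 3 were those of Runt genes and 1 that of Gm16225, a non-coding gene on the opposite strand whose window overlaps that of Runx3. Capitals mark the site in its ACCACA orientation, the reverse complement of TGTGGT. The pair starts 134 bases before the start in Runx3, and at base 29 of the transcript in Runx1 and base 24 in Runx2.
Runx1, chr16:92826028-92826051, minus strand: aaacaACCACAgaACCACAagttg
Runx2, chr17:44814586-44814609, minus strand: aaacaACCACAgaACCACAagtgc
Runx3, chr4:135120506-135120529, plus strand: cctcaACCACAgaACCACAaggcc

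The 250 bases before the start are given for the 3 genes that differed by at least 2-fold between the groups. Capitals mark a match, on either strand, to AGGTGT (T-box core), TGTGGT or TGCGGT (RUNX), or CAGGTG or CAGGTA (the E-box of ZEB proteins). CAGGTGT would match the T-box and the E-box letters at once. Of the 15 windows of the 9 genes, 0 held the T-box core, 3 a RUNX match and 3 an E-box match, against 11.8%, 18.6% and 25.4% of all windows of 250 bases. The window of Tbx21 held 1 E-box, 196 bases before the start, and the second window of Hopx 1 RUNX match, 167 bases before it. Eomes and the first window of Hopx held no match, which says only that these letters are not in these windows.
Tbx21, chr11:97115332-97115581, minus strand: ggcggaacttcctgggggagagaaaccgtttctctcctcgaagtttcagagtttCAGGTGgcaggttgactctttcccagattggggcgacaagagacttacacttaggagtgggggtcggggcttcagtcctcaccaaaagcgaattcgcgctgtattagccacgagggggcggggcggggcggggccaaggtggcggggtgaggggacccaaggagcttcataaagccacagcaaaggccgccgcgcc
Eomes, chr9:118477939-118478188, plus strand: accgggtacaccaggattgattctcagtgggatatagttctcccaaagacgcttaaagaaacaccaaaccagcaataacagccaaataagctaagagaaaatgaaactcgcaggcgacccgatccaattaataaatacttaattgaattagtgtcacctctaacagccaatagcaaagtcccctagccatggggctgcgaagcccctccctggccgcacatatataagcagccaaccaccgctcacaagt
Hopx, first start, chr5:77115124-77115373, minus strand: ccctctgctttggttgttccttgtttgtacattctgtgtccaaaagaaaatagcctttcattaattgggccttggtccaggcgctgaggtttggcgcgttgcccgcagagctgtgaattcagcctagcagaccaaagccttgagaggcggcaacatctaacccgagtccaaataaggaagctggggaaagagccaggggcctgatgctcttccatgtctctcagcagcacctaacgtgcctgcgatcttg
Hopx, second start, chr5:77095268-77095517, minus strand: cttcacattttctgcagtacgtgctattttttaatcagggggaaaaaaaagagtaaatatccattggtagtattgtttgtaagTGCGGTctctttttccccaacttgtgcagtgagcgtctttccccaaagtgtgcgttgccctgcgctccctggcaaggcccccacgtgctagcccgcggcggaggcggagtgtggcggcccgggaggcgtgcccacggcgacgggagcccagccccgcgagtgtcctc

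Facts of the whole series bear on how the members are read. The sort was seen in Gpr15, with GFP-negative values of 146 and 162 and GFP-positive values of 619 and 729, and Cd4 lay between 501 and 587 in both, although 1 line of the series text writes the GFP-negative cells as lacking CD4, against the sample labels. Replicate 1 of both groups had the Xist signal of female cells (4172 and 4313) and replicate 2 that of male cells (55.1 and 112), so within each group the arrays were of different animals, and differences within each replicate number are given beside the pooled ones. Differences are on the log2(signal + 16) scale, GFP-positive minus GFP-negative, which understates those of dim genes. At an adjusted p under 0.05 limma called 0 of 12241 genes (0%), while 1768 passed at an unadjusted p under 0.05, and other settings called up to 243. Groups did not overlap, with GFP-positive higher, for 28.9% of tested genes, and lower for 18.5%. The median difference ran with brightness, from 0.28 in the dimmest of 4 equal parts of the tested genes to -0.08 in the brightest. Under median scaling the counts of non-overlapping genes were 1659 higher and 4883 lower, where the values as deposited gave 3535 and 2270.

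Of the 7 tested genes Hopx stood higher in GFP-positive cells and Tbx21, Eomes and Cbfb lower, each with groups that did not overlap. That is 1 of 7 tested members higher and 3 of 7 lower, beside the 28.9% and 18.5% of all genes, and counts this small can be read only gene by gene. Eomes passed the dim limit through the group where it is high, so nothing is read from the counts of lower members. Runx1, Runx3 and Zeb2 overlapped between the groups. None of the 7 passed at an adjusted p under 0.05, and at an unadjusted p under 0.05 there were 1 higher and 2 lower, against 10.2% and 4.26% of all genes. In the exact permutation test 2 arrays against 2 cannot give a two-sided p below 0.333, so the fit over all genes is the test used.

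**Figure D1:**
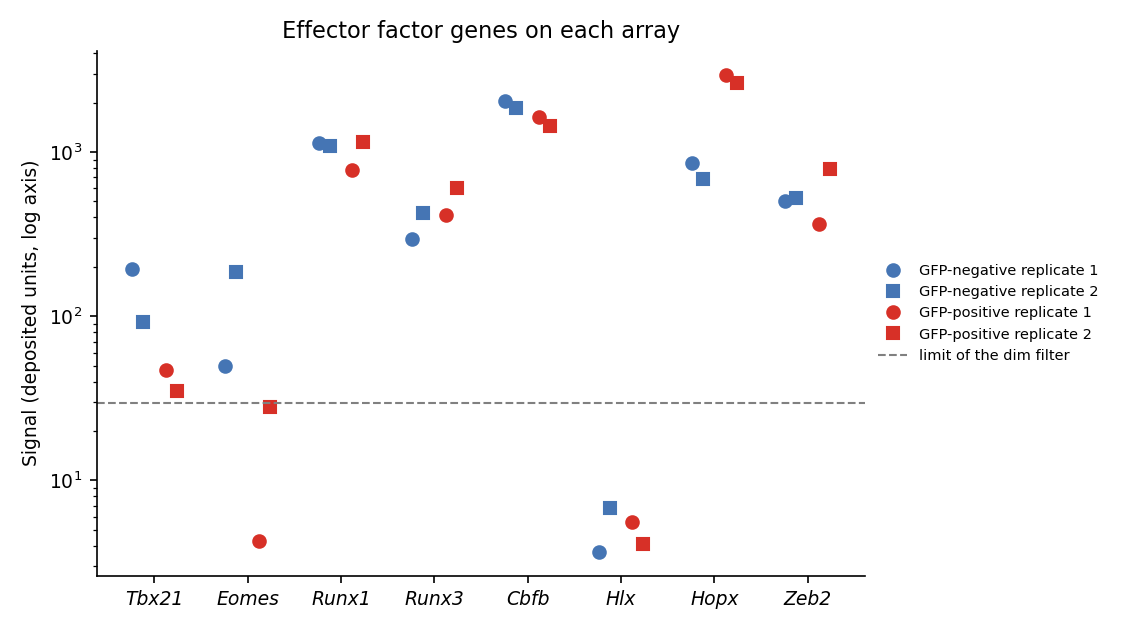
Deposited signal (log axis) of the 8 measured genes on each of the 4 arrays, with circles for replicate 1, squares for replicate 2, and the dashed line at the dim limit of 29.5. Hopx sits at 2617 or more on both GFP-positive arrays and at 856 or less on both GFP-negative arrays, while Tbx21 and Eomes are lower on both GFP-positive arrays and Hlx lies under the dim limit on all 4.

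For Tbx21 the GFP-negative arrays read 195 and 92.7 and the GFP-positive arrays 47.0 and 34.96. Both GFP-positive values lay below both GFP-negative ones, and the GFP-negative arrays differed from each other by more than the GFP-positive ones did. The means were 144 ± 72.5 and 41.0 ± 8.52 (SD, n = 2 each), a log2 difference of -1.42 (95% interval -2.33 to -0.51, limma adjusted p = 0.233). Within the replicate numbers it was -1.74 and -1.09. Counted from the most negative difference, Tbx21 ranked 57 of 12241 tested genes. It was -1.71 with a pseudocount of 1 and -0.94 with one of 64. Without GFP-negative replicate 1, where Tbx21 was brightest, the difference was -0.94, and without GFP-negative replicate 2 it was -1.90.

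For Eomes the GFP-negative arrays read 49.98 and 186 and the GFP-positive arrays 4.26 and 27.9. The means were 118 ± 96.0 and 16.1 ± 16.7 (SD, n = 2 each), and the difference was -1.95 (-3.50 to -0.40, limma adjusted p = 0.278). Both GFP-positive signals were under the dim limit of 29.5, so the gene passed that limit through the GFP-negative arrays alone and the size of the difference depends on the pseudocount. It was -2.98 with a pseudocount of 1 and -1.09 with one of 64. A second Eomes probe set, 1435172_at, went the same way, from 68.5 and 108 in GFP-negative to 22.04 and 42.0 in GFP-positive cells. Its difference was -1.13, with -1.15 and -1.10 within the replicate numbers. In both groups, and on both probe sets, Eomes was brighter in replicate 2. Without GFP-negative replicate 2 the chosen probe set differed by -1.14 and without GFP-negative replicate 1 by -2.76, the extremes among the 4 fits with 1 array left out.

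The 2 T-box members are also known from NK cells and killer T cells. The 5 NK and innate lymphoid markers measured summed to 183 and 201 in GFP-negative cells, and to 222 and 293 in GFP-positive cells. Of the 5 markers 4 had a positive difference and 3 passed the dim limit, but single markers differed from that sum. The brightest, Fcer1g, read 74.5 and 73.8 in GFP-negative against 88.7 and 141 in GFP-positive cells. Macrophage and dendritic cell markers also summed highest on GFP-positive replicate 2, at 1427, and which cells gave the NK sum was not tested. Klra8, an NK receptor gene, read 4.75 and 45.7 in GFP-negative and 5.27 and 5.28 in GFP-positive cells, and so was highest on GFP-negative replicate 2, like Eomes. The killer T cell gene Cd8b1 read 44.3 and 19.0 against 12.3 and 24.4, and so was highest on GFP-negative replicate 1, like Tbx21. Klra8 and Cd8b1 were both too dim to test. Cd8a, the other killer T cell gene, went the other way on its chosen probe set, at 32.5 and 42.5 against 52.1 and 60.2. That probe set was higher without overlap, as were 28.9% of all tested genes. The direction of Cd8a depended on the probe set, since its 5 probe sets ran from -0.57 to 0.44. The NK receptor gene Ncr1 was between 2.28 and 12.6 on all arrays, and Cd8a and Cd8b1 together had a summed signal between 61.4 and 84.7. The part of these cells in the Tbx21 and Eomes signals was not tested.

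For Hlx the GFP-negative arrays read 3.68 and 6.83 and the GFP-positive arrays 5.58 and 4.08. Its mean was brighter than 4.47% of probe sets, and the groups overlapped. Hlx was not tested, and at this signal no difference could be read.

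For Hopx the GFP-negative arrays read 856 and 684 and the GFP-positive arrays 2962 and 2617. The gap between the groups was wider than that between the arrays of either group. The means were 770 ± 121 and 2789 ± 244 (SD, n = 2 each), a 3.62-fold ratio of mean signals and a log2 difference of 1.84 (1.27 to 2.42, limma adjusted p = 0.104). Its difference ranked 38 from the highest and its p-value 35 of 12241. Within the replicate numbers the differences were 1.77 and 1.91. The second Hopx probe set, 1451776_s_at, went from 292 and 161 in GFP-negative to 1013 and 1170 in GFP-positive cells, a difference of 2.24. Hopx passed at an adjusted p of 0.000260 with the trended and robust variance, of 0.00423 with a pseudocount of 64 and of 0.0340 with the dim limit at the 60th percentile, and did not pass in the other 12 alternative fits.

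Hopx is also known from intestinal epithelium, and epithelial markers were unevenly spread. The 9 measured summed to 496 and 533 on the GFP-negative arrays, to 1757 on GFP-positive replicate 1 and to 525 on GFP-positive replicate 2. The groups did not overlap, with GFP-positive higher, for 3 of the 9, beside 28.9% of all tested genes. Epcam, an epithelial adhesion gene, read 72.3 and 42.5 in GFP-negative against 246 and 175 in GFP-positive cells, with differences of 1.57 and 1.70 within the replicate numbers. The keratin gene Krt18 read 38.2 and 50.6 against 225 and 76.5, and the stem cell gene Lgr5 36.3 and 27.9 against 62.8 and 58.0. The 2 probe sets of Lgr5 differed by 0.08 and 0.67, and the 2 of Epcam by 0.94 and 1.64. The other markers overlapped between the groups. Krt20, at -0.20, and Muc2, at -0.67, had a negative difference. Cdh1, Krt8, Vil1 and Car1 had a positive one but were lower in GFP-positive cells within replicate 2. Without GFP-positive replicate 1, where the epithelial sum was highest, the Hopx difference was 1.75. The part of epithelial cells in the Hopx signal was not tested.

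**Figure D2:**
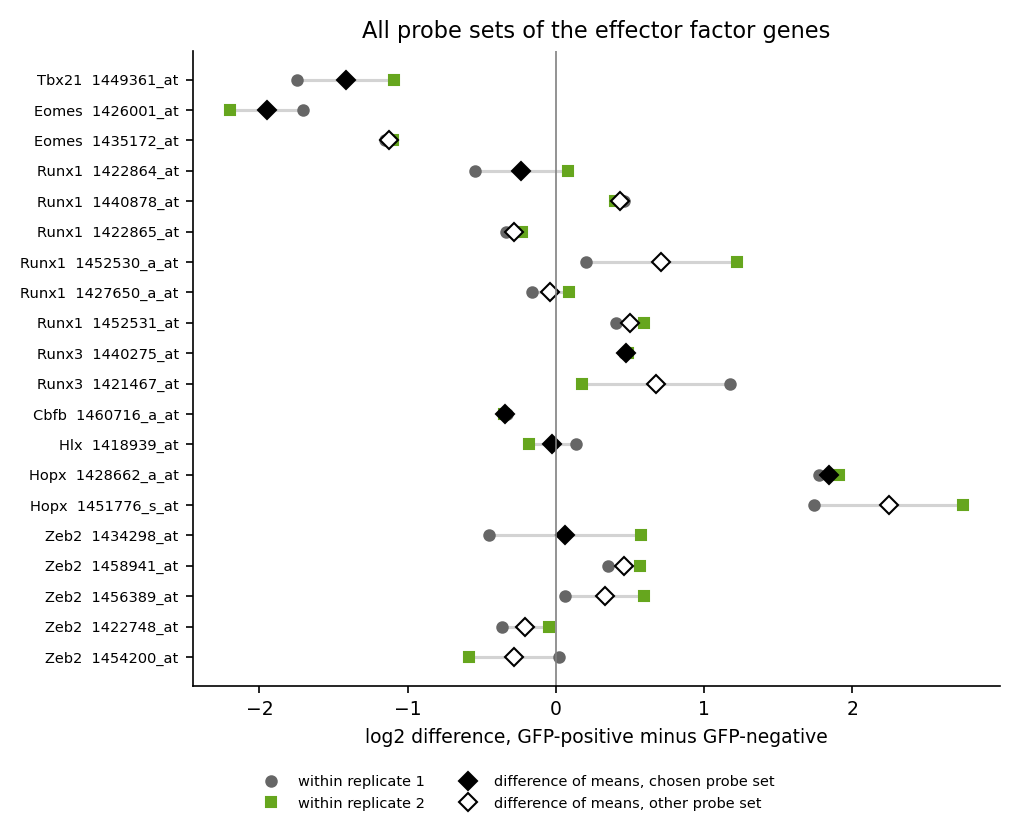
Log2 difference, GFP-positive minus GFP-negative on the log2(signal + 16) scale, of all 20 probe sets of the 8 genes, as the difference of means (diamonds, black for the probe set chosen) and within replicate 1 (circles) and replicate 2 (squares). Both probe sets of Hopx lie above 1.7 and both of Eomes below -1.0 at every point, while those of Runx1 and Zeb2 fall on both sides of 0.

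For Runx3 the GFP-negative arrays read 297 and 428 and the GFP-positive arrays 413 and 607. It was higher in GFP-positive cells within each replicate number, by 0.46 and 0.49, but the groups overlapped, and replicate 2 was the brighter array in both. The means were 362 ± 93.1 and 510 ± 137 (SD, n = 2 each), and the difference of 0.47 (-0.28 to 1.22, limma adjusted p = 0.528) had an interval that included 0. The dimmer probe set 1421467_at differed by 0.67, with 1.17 and 0.17 within the numbers.

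For Runx1 the GFP-negative arrays read 1138 and 1083 and the GFP-positive arrays 774 and 1144. GFP-positive replicate 1 was the low array, and GFP-positive replicate 2 was at the GFP-negative level. The means were 1111 ± 39.4 and 959 ± 262 (SD, n = 2 each), a difference of -0.23 (-0.89 to 0.42, limma adjusted p = 0.730), which was 0.043 without GFP-positive replicate 1. The 6 Runx1 probe sets did not give 1 answer. Of these, 3 had a positive difference, all with groups that did not overlap, namely 1440878_at at 0.43, 1452530_a_at at 0.71 and 1452531_at at 0.50. Among the 3 with a negative difference, 1422865_at was lower without overlap, at -0.28, and 1427650_a_at was at -0.04. Probe set 1440878_at had the tightest groups, from 167 and 179 in GFP-negative to 236 and 242 in GFP-positive cells.

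Cbfb, the shared partner, was the member with the least spread between replicates. The GFP-negative arrays read 2055 and 1851 and the GFP-positive arrays 1631 and 1448, so the groups did not overlap. The means were 1953 ± 144 and 1540 ± 130 (SD, n = 2 each), and the difference was -0.34 (-0.87 to 0.19, limma adjusted p = 0.523). It was -0.33 in replicate 1 and -0.35 in replicate 2. Cbfb lies in the brightest of the 4 parts of the tested genes, where 32.9% of genes were lower without overlap and the median difference was -0.08. The direction was negative in all 15 alternative fits, from -0.66 to -0.26.

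For Zeb2 the GFP-negative arrays read 502 and 524 and the GFP-positive arrays 363 and 789. The GFP-positive arrays lay on either side of the GFP-negative ones. The means were 513 ± 15.2 and 576 ± 301 (SD, n = 2 each), the difference was 0.06 (-0.90 to 1.02, limma adjusted p = 0.962), and within the replicate numbers it was -0.45 and 0.58. It was -0.48 without GFP-positive replicate 2 and 0.61 without GFP-positive replicate 1. Macrophage and dendritic cell markers also peaked on GFP-positive replicate 2: 11 of 12 were highest there, and their summed signal was 1427, against 217 and 355 on the GFP-negative arrays and 290 on GFP-positive replicate 1. Of the 12, 7 passed the dim limit, and the brightest, C1qb, alone read 700 on GFP-positive replicate 2. The macrophage receptor gene Csf1r read 164 there and 7.73, 10.7 and 35.5 on the other arrays, in the order GFP-negative replicate 1, replicate 2 and GFP-positive replicate 1. The 3 probe sets of Csf1r differed by 0.09 to 1.93. The part of macrophages and dendritic cells in the Zeb2 signal was not tested. The 4 dimmer Zeb2 probe sets, with means between 35.6 and 59.3, differed by -0.28 to 0.46.

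**Figure D3:**
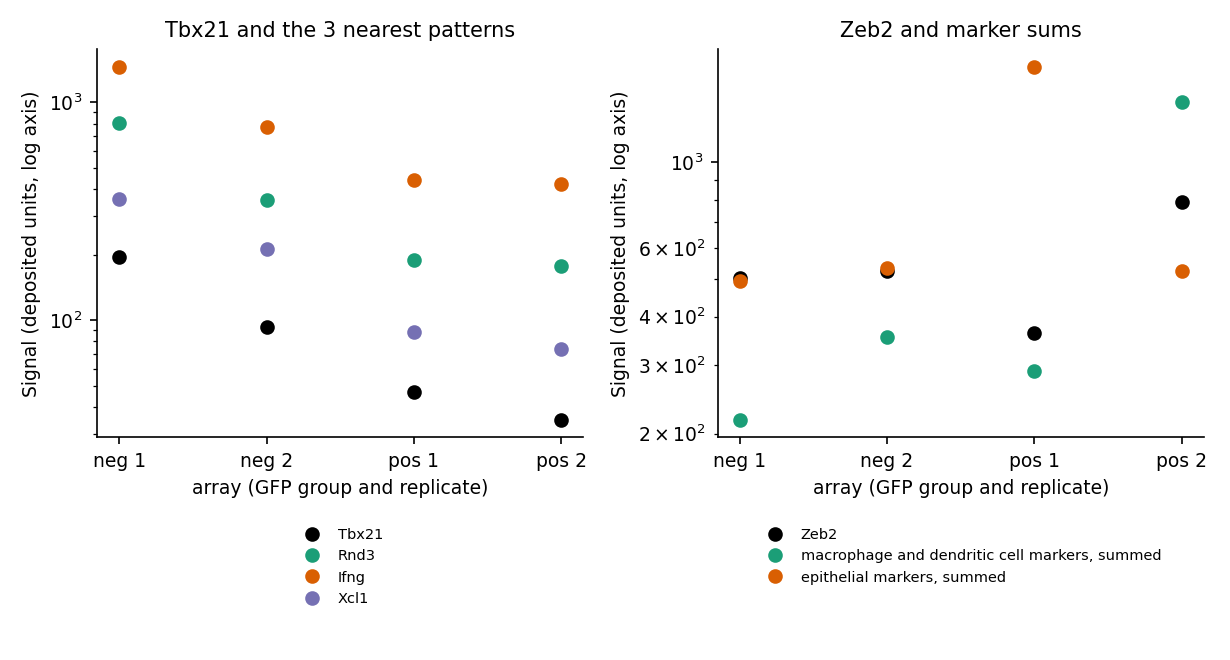
Deposited signals (log axis) on each array of Tbx21 with the 3 genes of nearest pattern (left), and of Zeb2 with the summed signals of macrophage and dendritic cell markers and of epithelial markers (right). Ifng, Xcl1 and Rnd3, picked as nearest to Tbx21 on these same arrays, take the same order over them as Tbx21. Zeb2 and the macrophage sum are both highest on GFP-positive replicate 2.

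Likeness of pattern was measured as the root mean square distance between mean-centred log2 values over the 4 arrays, among all tested genes that are no members. The genes nearest to Tbx21 were Rnd3 at 0.11 log2 units, Ifng, which encodes interferon-gamma, at 0.12, and Xcl1, which encodes lymphotactin, at 0.13. Ifng read 1457 and 770 in GFP-negative against 439 and 423 in GFP-positive cells, and Xcl1 361 and 212 against 88.5 and 73.9. Nearest to Runx3 were Rtl8c, Vtn and Zcchc17 at 0.02 to 0.03, and nearest to Zeb2 were Nckap5l, Gm5914 and Coil at 0.03 to 0.04. The 3 genes nearest to Runx3 were dim, with every signal under 68. All these genes were picked for nearness on these same 4 arrays, so their likeness to a member is no separate result.

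Genes that T-bet and eomesodermin are known to control did not move one way. Of 16 listed genes 13 were tested. At an unadjusted p under 0.05 there were 3 higher and 4 lower, beside 10.2% and 4.26% of all tested genes. At an adjusted p under 0.05 there were 0. The median difference was 0.02, beside 0.08 over all tested genes, and it was -0.04 under quantile normalization, -0.27 under median scaling and 0.18 with the mean of probe sets. It ran from -0.21 without GFP-negative replicate 2 to 0.24 without GFP-negative replicate 1. Over all tested genes 3.82% were higher and 1.36% lower by at least 2-fold without overlap. Lower by as much were Xcl1 at -1.60, the death ligand gene Fasl at -1.59 and Ifng at -1.27. Higher by as much were Klrg1, an inhibitory receptor gene of terminal effector cells, at 2.58, and Gzmb, a cytotoxic granule protease gene, at 2.29. Gzmb read 394 and 482 in GFP-negative against 2017 and 2375 in GFP-positive cells, opposite in direction to Tbx21. Fasl read 439 and 449 against 111 and 168. The genes Cx3cr1, Il12rb2 and S1pr5 were too dim to test.

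Genes of the pathway that induces T-bet lay on both sides of 0. Of 9 tested genes 5 had a positive and 4 a negative difference, with a median of 0.06, which was -0.23 under median scaling and 0.23 with the mean of probe sets, and 0 passed even at an unadjusted p under 0.05. The brightest were Jak2, the kinase gene of the interleukin-12 and interferon-gamma receptors, at 0.17 (-0.36 to 0.70), and Il27ra, a receptor gene for interleukin-27, at -0.23 (-0.97 to 0.51). Stat4, whose product carries the interleukin-12 signal to Tbx21, was chosen for mention after its values were seen. It read 1302 and 1346 in GFP-negative against 1702 and 1800 in GFP-positive cells, a difference of 0.40 (-0.11 to 0.91) without overlap. In the list 4 genes were higher and 1 lower without overlap, beside 28.9% and 18.5% of all tested genes. The largest difference was that of Il12rb1, at 0.80 (-0.22 to 1.81), and the lower gene was Irf1, at -0.27.

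**Figure D4:**
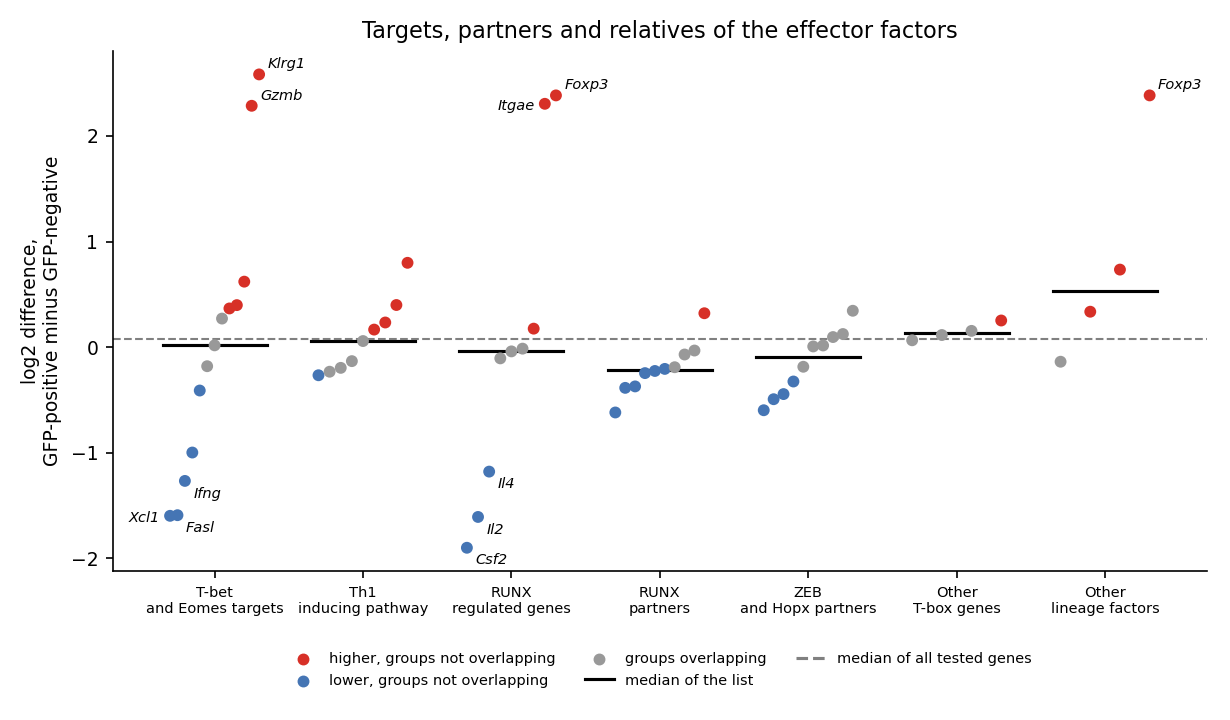
Log2 difference, GFP-positive minus GFP-negative on the log2(signal + 16) scale, of each tested gene of 7 lists, coloured by whether the groups overlap, with the list median (black line) and the median of all tested genes, 0.08 (dashed line). Targets of T-bet and Eomes and of RUNX proteins spread from below -1.5 to above 2, while 9 of 10 RUNX partner genes lie below 0 on the probe set chosen.

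Among 9 tested genes known to be regulated by RUNX proteins in T cells, 2 were higher and 3 lower by at least 2-fold without overlap, and the same numbers passed at an unadjusted p under 0.05. Over all tested genes those shares were 3.82% higher and 1.36% lower for the first rule, and 10.2% and 4.26% for the second. The higher genes were Foxp3, the factor of regulatory T cells, at 2.38, and Itgae, which encodes CD103, at 2.30. The lower ones were the cytokine genes Csf2 at -1.90, Il2 at -1.61 and Il4 at -1.18. The brightest members, Bcl11b and Il7r, differed by -0.04 and 0.18. Itgae read 196 and 311 in GFP-negative against 1274 and 1297 in GFP-positive cells. Runx3, which is known to drive it, was higher within each replicate number, by 0.46 and 0.49, but overlapped between the groups. The part of Runx3 in the Itgae difference was not tested.

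RUNX partner genes differed by small amounts. Of 10 tested, 9 had a negative difference, as had 5151 of all 12241 tested genes. The median was -0.22, with -0.22 within each replicate number, beside 0.08 over all genes. By brightness the 10 were spread over all but the dimmest of the 4 parts of the tested genes, where the median differences were 0.20, 0.01 and -0.08. The median was -0.52 under median scaling, with 5 lower at an unadjusted p under 0.05, and -0.13 with the mean of probe sets, where 7 of 10 were negative. With the main settings, groups did not overlap for 6 lower and 1 higher, beside 18.5% and 28.9% of all tested genes. With these settings 0 passed at an unadjusted p under 0.05. The brightest were the Groucho-type corepressor genes Tle3, at -0.37 (-0.91 to 0.17), and Tle4, at -0.25 (-0.76 to 0.27). The direction of Tle3 depended on the probe set, since its 4 probe sets ran from -0.44 to 0.68. So did that of Kat6a (-0.23 to 0.50), Sin3a (-0.43 to 0.24) and Cbfa2t3 (-0.70 to 0.14). Tle4 and Cbfa2t2 were negative on every probe set.

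Partners and relatives of Zeb2 and Hopx gave 5 positive and 5 negative differences among 10 tested, with a median of -0.09, which was -0.39 under median scaling, 0.07 without GFP-negative replicate 2 and -0.41 without GFP-negative replicate 1. Zeb1, the close relative of Zeb2, was bright, at 3175 and 3791 in GFP-negative against 3663 and 3753 in GFP-positive cells, and differed by 0.10 (-0.45 to 0.64). Epc1, a polycomb enhancer gene whose product binds Hopx, differed by -0.49 (-1.04 to 0.05). Of 13 other T-box genes measured, 9 were too dim to test. The 4 tested, led in brightness by Mga at 0.06 and Tbx6 at 0.25, had a median of 0.13, but 2 were negative under quantile normalization and all 4 under median scaling.

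Lineage factor genes of other helper fates were set beside Tbx21. Foxp3 was higher as given above, and Gata3, the type 2 factor, differed by 0.73 (-0.20 to 1.67). Rora, of Th17 cells, differed by 0.34 (-0.19 to 0.86) on its chosen probe set, with its 9 probe sets between -0.68 and 0.76. Bcl6, of follicular helper cells, differed by -0.14 (-0.69 to 0.42). Of the 5 factor genes with a value, counting Tbx21, Tbx21 was the one with both GFP-positive arrays below both GFP-negative arrays.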

How the data were processed

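CD4 T cell RNA was biotin-labelled and hybridised by Affymetrix protocols, per the labels, and the authors deposited 1 linear intensity per probe set and array for 45101 probe sets. The summary software is not given in the sources used here. The mean after trimming 2% at each end was 150.0 on every array while medians ran from 36.1 to 46.0, so arrays were scaled but not quantile-normalized. Signals were taken to log2 after adding 16. Genes were named by the platform annotation, which can be old, from 34945 probe sets with 1 symbol. Genes above the 40th percentile of mean signal were tested with limma 3.58.1 in R 4.3.3 (group as the only term, two-sided, Benjamini-Hochberg adjustment over all tested genes, checked on simulated data). limma draws the variance of each gene towards that of all tested genes, here with 3.55 prior beside 2 residual degrees of freedom. The 4 arrays limit the precision.

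The members, lists and rules were chosen with earlier results of these data known. Named from each list were genes differing by at least 2-fold without overlap and the 2 brightest, plus the 3 nearest patterns of Tbx21, Runx3 and Zeb2. Listed genes without a value were not analysed here. The 15 alternatives tried were pseudocounts, dim limits, normalizations, probe set rules, variance settings, a replicate block and leaving out each array. Same-numbered arrays share only a number in the labels. Promoter sequences are RefSeq's, matched by symbol for 9 of 9 genes.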

Additional observations from a re-analysis of the deposited data

Results flagged for a closer look

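Runx1 and Zeb2 differed in opposite directions in the 2 replicate numbers, of which replicate 1 had the Xist signal of female and replicate 2 that of male cells. For Runx1 the log2 difference was -0.55 in replicate 1 and 0.079 in replicate 2, and for Zeb2 it was -0.45 and 0.58. With 1 array of each group per number, the difference between the numbers was not tested. Of all tested genes, 35.6% had opposite signs in the 2 numbers. The 2 arrays per group were too few to look for single outlying samples.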

How the results depend on the processing

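The count of genes called at an adjusted p under 0.05, 0 as reported, was 171 with a pseudocount of 64, 43 with the dim limit at the 60th percentile, 6 with the mean of probe sets, 243 with trended and robust variance and 4 when the mean of log2 values chose the probe set and set the limit, an alternative chosen after seeing the data. In that fit Eomes was read from its second probe set, at -1.13. Hopx passed with a pseudocount of 64 (1.78), the 60th percentile limit (1.84) and trended and robust variance (1.84). Runx1 reversed to 0.18 with the mean of probe sets, and ran from -0.51 to 0.043 with 1 array left out. Zeb2 reversed to -0.25 under median scaling, and ran from -0.48 to 0.61 with 1 array left out. The cause was not tested. Members higher without overlap, 1 as reported, were 2 under cyclic loess and 2 with the mean of probe sets, and 1 to 4 with 1 array left out. Members lower without overlap, 3 as reported, were 4 under median scaling and 3 to 5 with 1 array left out, where fewer arrays make overlap rarer. Tbx21, Eomes, Cbfb, Runx3 and Hopx kept their direction in all 15 alternatives. Median scaling moved the median of all genes from 0.08 to -0.20. With at least a 2-fold difference and no overlap, 468 genes were higher and 166 lower, and these were 193 and 416 under median scaling, 296 and 211 under quantile normalization, and 285 and 211 under cyclic loess.

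With the replicate number as a block limma called 0 genes, with 2119 at an unadjusted p under 0.05, and the adjusted p was 0.107 for Hopx, 0.158 for Tbx21 and 0.113 for Eomes. The differences are then those already given, such as 1.84 for Hopx and -1.42 for Tbx21, and no call changed. Deviations of same-numbered arrays correlated at 0.197 over genes.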
